A study of Homo sapiens with 6 samples.

Results

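WNT10B and DDN lie near each other on the long arm of chromosome 12, and transcripts of both were scarcer in 22Rv1 cells after knockdown of MED12. The neighbourhood described here consists of 10 of the 62703 genes counted: WNT10B and DDN, and the 8 genes listed for their position around them, which are CCDC65, FKBP11, ARF3, WNT1, PRKAG1, KMT2D, RHEBL1 and LMBR1L. WNT10B and DDN were selected on their measured fall between the same libraries that are compared below, so their values are given as a description, without a test. The 8 others were listed by position with results of these data already known. Of the 10 genes, 8 passed the expression filter of the test across all genes, and CCDC65 and WNT1 did not.

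22Rv1 is a human prostate carcinoma line that expresses the androgen receptor. At 3 days after transfection, RNA was compared between 3 libraries of cells transfected with a non-targeting siRNA pool (siCtrl) and 3 libraries of cells transfected with a siRNA pool against MED12 (siMED12), each with 25 pmol of siRNA. All 6 libraries came from this 1 line, no drug was added to either group, and a transient knockdown leaves part of the MED12 transcript in place. The study's methods state at least 3 biological replicates for its experiments without saying what was separate between these libraries, so the p-values measure the spread between these 6 libraries.

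MED12 is a subunit of the kinase module of Mediator, the complex that relays signals from transcription factors to RNA polymerase II. WNT ligands are secreted glycoproteins that bind Frizzled and LRP receptors, and through the canonical branch they stabilize β-catenin, which activates transcription together with TCF and LEF factors. WNT1 was the founding member of the family and WNT10B is known for its part in bone and mammary development, whereas DDN encodes dendrin, a protein described in neuronal dendrites and in the slit diaphragm of kidney podocytes. The genes around them have unrelated roles, and being adjacent does not by itself make genes share control.

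MED12 itself was at 72.7 ± 4.99 CPM in siCtrl and 22.98 ± 7.61 CPM in siMED12 (mean ± SD, n = 3 each), where CPM is counts scaled to the size of the library after TMM scaling, with a log2 fold change of -1.66 (edgeR adjusted p = 0.0314). The libraries held 16136699 to 17012788 counts and 25802 to 27404 detected genes. The share of mitochondrial counts ran from 4.43% to 10.1% and was alike in libraries of the same replicate number. All 8 prostate luminal markers examined passed the filter, and their summed level was 3122 to 3276 CPM in siCtrl and 2649 to 2809 CPM in siMED12, which did not overlap. With treatment only 0 of the 8 were called, against 0.151% of all genes called higher and 0.413% lower. With the replicate block described below 1 of the 8 rose and 6 fell, against 17.1% and 16.2% of all genes, and their median log2 fold change was -0.35. The markers differed widely, with blocked log2 fold changes from -1.50 in KLK2 to 0.39 in HOXB13. The part of these markers in the results below was not tested. Among markers of other cell types, KRT5 (a basal cell gene) and RBFOX3 (a neuronal gene) had no count in any library, PTPRC and PECAM1 averaged at most 0.0810 CPM in either group, and COL1A1 stood at 19.8 ± 6.63 CPM in siCtrl and 20.1 ± 5.74 CPM in siMED12. In bulk RNA, fewer cells that express a gene and less of its RNA per cell cannot be told apart.

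In chromosome order, the 10 genes spanned 206791 bp, from the start of CCDC65 at base 48904110 to the end of LMBR1L at base 49110900 (GRCh38, Gencode release 44). WNT10B (ENSG00000169884.14, chr12:48965340-48971735) and DDN (ENSG00000181418.8, chr12:48995149-48999375) are both on the minus strand and 23413 bp apart. WNT1 (ENSG00000125084.13, chr12:48978322-48982620) lies between them on the plus strand, so that its start and that of WNT10B point away from each other at a distance of 6587 bp. ARF3 (ENSG00000134287.10, chr12:48935723-48957487) is the next gene beyond WNT10B, 7852 bp away, and PRKAG1 (ENSG00000181929.13, chr12:49002274-49018807) the next beyond DDN, 2898 bp away. KMT2D (ENSG00000167548.18, chr12:49018975-49060794) follows PRKAG1 after 167 bp, and RHEBL1 (ENSG00000167550.11, chr12:49064676-49070025) and LMBR1L (ENSG00000139636.16, chr12:49097136-49110900) close the row on that side. At the other end, FKBP11 (ENSG00000134285.11, chr12:48921518-48926474) lies within the bounds of CCDC65 (ENSG00000139537.11, chr12:48904110-48931840) on the opposite strand. CCDC65 and WNT1 are on the plus strand and the other 8 genes on the minus strand.

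The 250 bases before the gene start were available from RefSeq (GRCh38.p14) for 6 of the 10 genes, as 7 windows because FKBP11 has 2 starts. The windows of WNT1, ARF3 and KMT2D hold no annotated untranslated bases. Those of WNT1 and ARF3 are shown because WNT1 lies between WNT10B and DDN and ARF3 is the next gene beyond WNT10B, and that of KMT2D because it holds the E-box described below. Each is written 5′ to 3′ on the strand of its gene, in lower case, with matches to the GC box or the E-box in capitals: WNT1 at chr12:48978072-48978321 (plus strand), ARF3 at chr12:48957488-48957737 (minus strand) and KMT2D at chr12:49060795-49061044 (minus strand).
WNT1: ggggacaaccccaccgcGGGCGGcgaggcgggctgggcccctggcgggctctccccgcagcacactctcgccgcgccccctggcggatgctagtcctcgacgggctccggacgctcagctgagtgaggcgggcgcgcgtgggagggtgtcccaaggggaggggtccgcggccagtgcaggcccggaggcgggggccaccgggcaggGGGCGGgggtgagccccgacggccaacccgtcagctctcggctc
ARF3: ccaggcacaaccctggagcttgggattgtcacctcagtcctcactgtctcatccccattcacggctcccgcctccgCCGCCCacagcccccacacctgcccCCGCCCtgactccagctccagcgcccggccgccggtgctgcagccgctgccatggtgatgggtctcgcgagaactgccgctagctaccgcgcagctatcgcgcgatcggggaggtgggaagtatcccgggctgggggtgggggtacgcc
KMT2D: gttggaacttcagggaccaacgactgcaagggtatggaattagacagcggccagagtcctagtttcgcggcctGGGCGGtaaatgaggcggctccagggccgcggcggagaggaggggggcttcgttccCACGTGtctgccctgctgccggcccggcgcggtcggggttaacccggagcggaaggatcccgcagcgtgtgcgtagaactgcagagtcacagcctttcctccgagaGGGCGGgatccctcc
These windows had a GC content of 78.4% in WNT1, 69.6% in ARF3 and 65.6% in KMT2D, against a median of 58.0% over 35116 promoters of the same length. Motifs were searched on both strands, and none of them contains another. The GC box, spelled GGGCGG, was in 7 of the 7 windows and in 42.6% of all promoters. The E-box, spelled CACGTG, was in the KMT2D window and in 6.34% of all promoters, and the CCAAT box, spelled as its name, was in the LMBR1L window and in 32.0% of all. The TATA box, spelled TATAAA, was in 0 of the 7 windows and in 10.7% of all promoters. The core of the TCF and LEF motif, spelled CTTTGA, was likewise in 0 of the 7 and in 11.2% of all. A match is a description of letters and not of a bound site.

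In siCtrl, the 10 genes differed widely in level once counts were divided by exon length. ARF3, a small GTPase of the Golgi, was the highest at 52.3 ± 3.29 CPM per kilobase of exon, followed by KMT2D, a histone H3 lysine 4 methyltransferase of enhancers, at 17.2 ± 2.01. Next came WNT10B at 8.78 ± 0.489 CPM per kilobase, and then DDN at 6.85 ± 0.432. Per kilobase of the exons shared with no other gene, DDN was at 8.08 CPM. WNT10B, which shares none, stayed at 8.78, so the order of these means held while the gap was smaller. The next genes in this order were FKBP11, a peptidyl-prolyl isomerase of the secretory pathway, at 6.44 ± 2.93 CPM per kilobase and LMBR1L, a lipocalin receptor, at 5.90 ± 1.86. The highest library of FKBP11 (9.83 CPM per kilobase) was above every library of WNT10B. DDN, FKBP11 and LMBR1L also overlapped in their libraries, so the order of these genes was not beyond the spread, and the highest library of RHEBL1 (mean 3.14 ± 1.62 CPM per kilobase) overlapped the lowest of LMBR1L. PRKAG1, CCDC65 and WNT1 stood at 0.741 ± 0.0846, 0.204 ± 0.106 and 0.136 ± 0.0972 CPM per kilobase, and the libraries of CCDC65 and WNT1 overlapped. Per kilobase of the exons shared with no other gene, PRKAG1 was at 1.94 CPM, so its level is uncertain. Among the genes tested, these siCtrl levels per kilobase put ARF3 at percentile 95.3, WNT10B at percentile 68.3 and DDN at percentile 62.4. In siMED12, WNT10B was at 3.19 ± 0.712 and DDN at 2.09 ± 0.167 CPM per kilobase, below the means of FKBP11 (6.65) and LMBR1L (6.74).

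**Figure D1:**
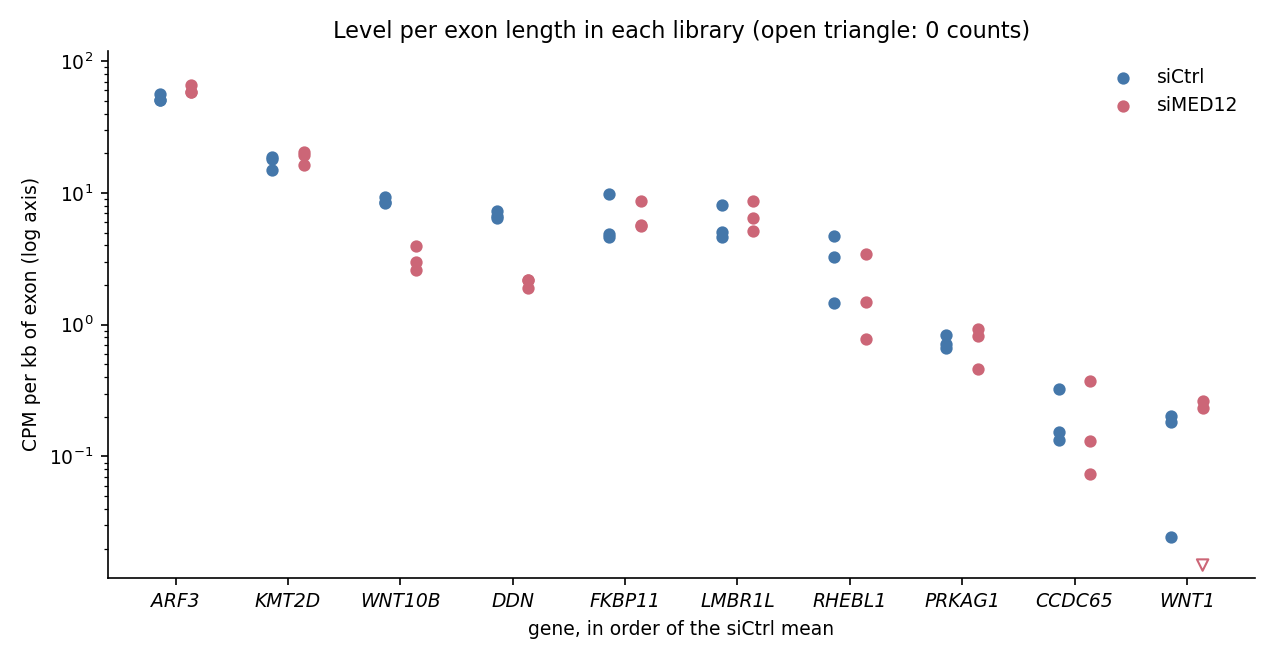
Level of each of the 10 genes in CPM per kilobase of annotated exon, on a log axis, for each library of siCtrl and siMED12, with genes ordered by their siCtrl mean. ARF3 was highest at a siCtrl mean of 52.3 CPM per kilobase, and the siMED12 points of WNT10B and DDN lie below their siCtrl points.

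WNT10B, the secreted ligand, had 376, 384 and 359 counts in siCtrl replicates 1, 2 and 3 and 174, 115 and 125 counts in the siMED12 replicates of the same numbers. As CPM these were 22.4, 24.3 and 21.9 in siCtrl and 10.3, 6.72 and 7.82 in siMED12. Every siMED12 library lay below every siCtrl library, with the siMED12 library of replicate 1 the highest of its group. The mean went from 22.8 ± 1.27 to 8.29 ± 1.85 CPM, or 36.3% of the siCtrl level, with a log2 fold change of -1.46 (SE 0.19, 95% interval -1.89 to -1.03). By replicate number the change in CPM was -53.8%, -72.3% and -64.2%.

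DDN, the dendrin gene, had 432, 442 and 406 counts in siCtrl and 141, 124 and 133 counts in siMED12. In CPM it was at 25.7, 27.96 and 24.7 in siCtrl and at 8.38, 7.25 and 8.33 in siMED12. The siMED12 libraries of DDN were close to each other and all below the siCtrl libraries. Its mean went from 26.1 ± 1.65 to 7.98 ± 0.636 CPM, which is 30.5% of the siCtrl level, with a log2 fold change of -1.71 (SE 0.15, 95% interval -2.04 to -1.38). The change by replicate number was -67.4%, -74.1% and -66.4%. The intervals of DDN and WNT10B overlap, and the difference between their fold changes was not tested. For reference, the groups did not overlap, with siMED12 below, in 10.9% of the 17901 genes tested, and 0.413% of them were called lower at an adjusted p below 0.05 in the fit with treatment only. When all tested genes were ranked from the lowest log2 fold change, DDN was at rank 20 and WNT10B at rank 44. Among the 10671 tested genes with a mean of at least 10 CPM they were at ranks 2 and 8. These ranks describe why the pair was picked and are no further evidence.

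**Figure D2:**
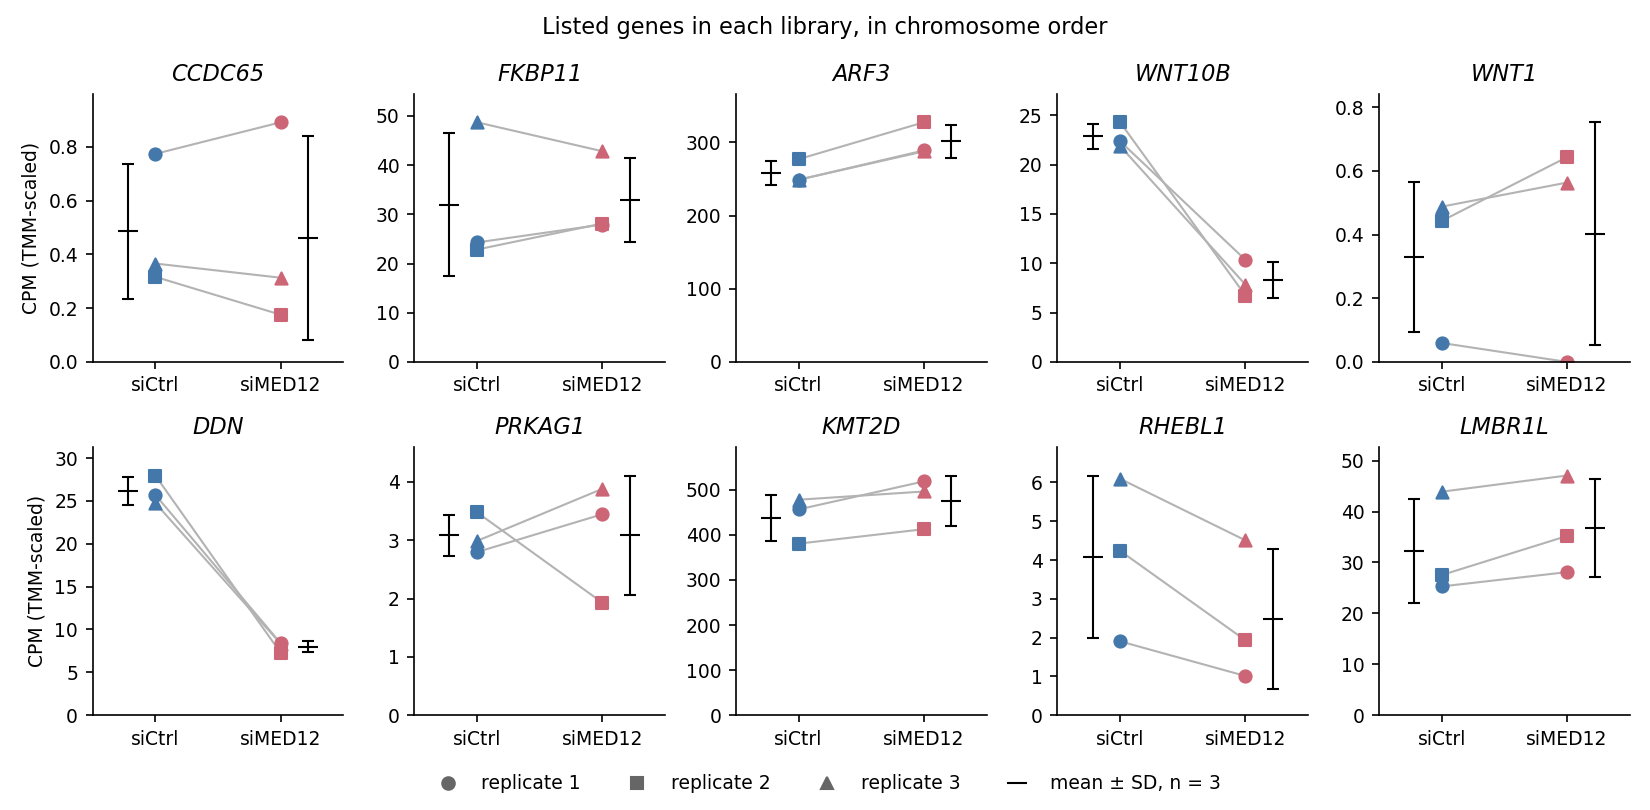
CPM of each of the 10 genes in each library, with the group mean as a bar and lines that join libraries of the same replicate number. WNT10B (22.8 to 8.29 CPM) and DDN (26.1 to 7.98 CPM) are lower in siMED12 in each of the 3 pairs, while the ARF3 libraries of siMED12 lie above those of siCtrl.

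Both genes were also set against their neighbours within each library. Per 100 counts of ARF3 there were 8.98, 8.77 and 8.79 counts of WNT10B in siCtrl and 3.58, 2.05 and 2.72 in siMED12. Per 100 counts of ARF3 there were 10.3, 10.1 and 9.94 counts of DDN in siCtrl and 2.90, 2.21 and 2.89 in siMED12. These ratios do not depend on how the libraries were scaled, but they do depend on ARF3. Its mean was 258 CPM in siCtrl and 302 CPM in siMED12, which makes the fall in the ratios larger than in CPM. The groups were apart in both ratios. As WNT10B and DDN were selected on their fall, this is a description and no further evidence. Per 100 counts of KMT2D, the mean was 5.29 ± 0.962 for WNT10B and 6.05 ± 1.14 for DDN in siCtrl, and 1.73 ± 0.227 and 1.68 ± 0.0713 in siMED12. KMT2D was itself higher in each siMED12 library than in the siCtrl library of its number. WNT10B counts per 100 counts of DDN were 87.0, 86.9 and 88.4 in siCtrl and 123, 92.7 and 94.0 in siMED12. The siCtrl libraries were close to each other in this ratio, and each siMED12 library lay above them, with replicate 1 the farthest. In siMED12 the ratio rests on 115 to 174 counts of WNT10B and 124 to 141 of DDN. Whether the gap exceeds counting error was not tested.

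The neighbours were compared to ask whether the fall extended beyond WNT10B and DDN. Of the 8 neighbours, 6 could be tested. In the edgeR quasi-likelihood fit with treatment only, 0 of the 6 were called higher and 0 lower at an adjusted p below 0.05, against 0.151% and 0.413% of all genes. At an unadjusted p below 0.05, 1 was higher, ARF3, and 0 were lower. DESeq2 and limma also called 0 of the 6. The replicate numbers were read as pairs of libraries, which the labels do not state. With a block for the replicate number 3 of the 6 rose (ARF3, KMT2D and LMBR1L) and 1 fell (RHEBL1), where 17.1% of all genes rose and 16.2% fell. The median log2 fold change of the 6 tested neighbours was 0.08 with treatment only and 0.10 with the block, against 0.02 over all tested genes in both fits.

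**Figure D3:**
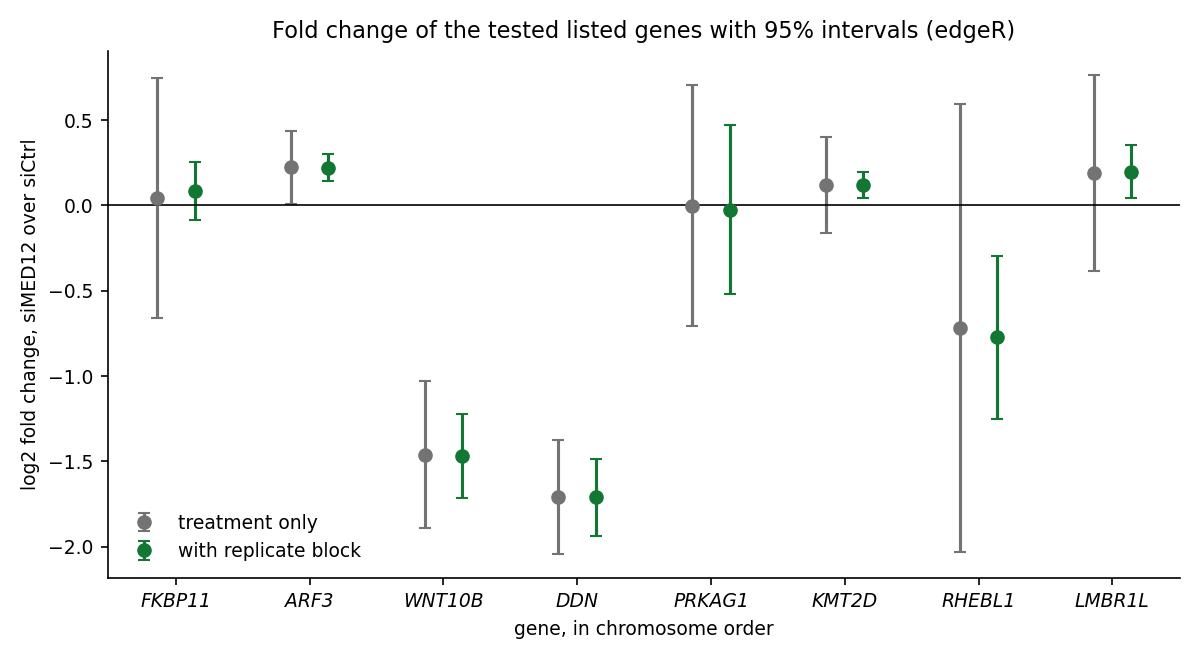
Log2 fold change of siMED12 over siCtrl for the 8 listed genes that were tested, in chromosome order, from edgeR with treatment only and with a block for the replicate number. Points are estimates and bars 95% intervals, with WNT10B and DDN shown as a description, and the blocked interval of RHEBL1 runs from -1.25 to -0.29.

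ARF3, the nearest gene beyond WNT10B, was at 249, 277 and 249 CPM in siCtrl and at 289, 328 and 288 CPM in siMED12. All siMED12 libraries were above all siCtrl libraries, which held for 11.2% of all genes, and the gain by replicate number was 16.1%, 18.2% and 15.6%. Its log2 fold change was 0.22 (edgeR adjusted p = 0.302 with treatment only, 2.52e-05 with the block, 95% interval 0.14 to 0.30 with the block). A fall of the size seen in WNT10B lies far outside this interval. Of the 5 ARF GTPase genes tested, ARF3 and ARF5 (0.16, edgeR adjusted p = 0.00276) rose with the block and 0 fell, where 17.1% of all genes rose and 16.2% fell. The median log2 fold change of the 5 was 0.05, and 0 were called with treatment only.

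PRKAG1, a regulatory subunit of the AMP-activated kinase AMPK, is the nearest gene beyond DDN. It was at 2.80, 3.48 and 2.99 CPM in siCtrl and at 3.45, 1.93 and 3.88 CPM in siMED12, so the groups overlapped and the siMED12 library of replicate 2 was the lowest of all. Its log2 fold change was -0.00 with treatment only, with a 95% interval of -0.71 to 0.70 (edgeR adjusted p = 0.999; 0.954 with the block). The lower bound lies above the estimates of WNT10B and DDN, but the interval leaves room for a smaller change in either direction. PRKAG1 shares 61.8% of its exonic bases with other annotated genes, 2061 bases with ENSG00000288710 on the same strand and 514 with DDN-AS1 on the opposite strand, and how reads there were counted was not stated. Its level is therefore uncertain. Among 6 tested AMPK subunit genes, PRKAA2 (0.37, edgeR adjusted p = 0.000166), PRKAB1 (0.26, 0.00637) and PRKAA1 (0.15, 0.00733) rose with the block and 0 fell. With the block, 17.1% of all genes rose and 16.2% fell. The median log2 fold change of the 6 was 0.11, and 0 were called with treatment only.

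KMT2D was at 456, 381 and 478 CPM in siCtrl and at 519, 413 and 496 CPM in siMED12. The groups overlapped, although each siMED12 library was above the siCtrl library of its number, by 13.6%, 8.43% and 3.83%. ARF3, KMT2D and LMBR1L were each higher in all 3 pairs, which held for 30.6% of all genes. The log2 fold change was 0.12 (edgeR adjusted p = 0.725 with treatment only, 0.0145 with the block), and the blocked call was lost without replicate 1 (0.07, adjusted p = 0.351) and without replicate 2 (0.09, adjusted p = 0.0813). All 10 genes listed for the KMT2C and KMT2D complexes, which methylate enhancer histones, were tested. With the block, KDM6A (0.32), KMT2C (0.15) and KMT2D rose and DPY30 (-0.29), PAGR1 (-0.18) and WDR5 (-0.16) fell, where 17.1% of all genes rose and 16.2% fell. The median of the 10 was -0.02, and 0 were called with treatment only.

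LMBR1L was at 25.3, 27.5 and 43.9 CPM in siCtrl and at 28.1, 35.2 and 47.1 CPM in siMED12. Replicate 3 was the highest of each group, the groups overlapped, and the log2 fold change was 0.19 (edgeR adjusted p = 0.792 with treatment only) or 0.20 with the block (adjusted p = 0.0417). This blocked call was lost without replicate 1 (adjusted p = 0.121), without replicate 2 (0.482), with DESeq2 size factors (0.0528), without a filter beyond 1 count (0.0768) and with genes averaging 1 CPM or more (0.0669), so that it held in 3 of 8 blocked fits. FKBP11 was at 24.3, 22.8 and 48.7 CPM in siCtrl and at 27.9, 28.1 and 42.8 CPM in siMED12. Here too replicate 3 stood above the others in both groups, and the treatment difference did not pass in either fit (log2 fold change 0.04, edgeR adjusted p = 0.969, and 0.08, adjusted p = 0.485, with the block). Its blocked 95% interval was -0.09 to 0.25.

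RHEBL1, which encodes a small GTPase related to RHEB of the mTOR pathway, was the 1 tested neighbour that fell in the blocked fit. It was at 1.90, 4.24 and 6.10 CPM in siCtrl and at 1.01, 1.93 and 4.51 CPM in siMED12, on 32, 67 and 100 counts against 17, 33 and 72. The groups overlapped, yet each siMED12 library was below the siCtrl library of its number, with changes of -47.0%, -54.5% and -26.1%, and 27% of all genes were lower in all 3 pairs. The log2 fold change was -0.72 with an SE of 0.57 with treatment only (edgeR adjusted p = 0.621), and -0.77 with an SE of 0.24 and a 95% interval of -1.25 to -0.29 with the block (adjusted p = 0.00964). Without replicate 2 the blocked log2 fold change was -0.62 (edgeR adjusted p = 0.0968). With treatment only and 1 library left out, the log2 fold change ran from -0.31 without siCtrl replicate 3 to -1.46 without siMED12 replicate 3. RHEBL1 lies beyond KMT2D, 3881 bp from it.

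WNT1 and CCDC65 were near the limit of detection. WNT1, the ligand gene between WNT10B and DDN, had 1, 7 and 8 counts in siCtrl and 0, 11 and 9 in siMED12, where a count of 0 allows up to 3. Its sum was 16 in siCtrl (exact 95% Poisson interval 9.15 to 25.98) and 20 in siMED12 (12.2 to 30.9). CCDC65, which encodes a protein of the ciliary axoneme, had 13, 5 and 6 counts in siCtrl and 15, 3 and 5 in siMED12, with sums of 24 (15.4 to 35.7) and 23 (14.6 to 34.5). No difference was detectable at this depth for either gene, and these intervals cover counting error only.

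Part of the DDN gene is shared with transcripts on the opposite strand. DDN-AS1, an antisense lncRNA (ENSG00000257913.4, chr12:48998367-49019241), starts inside DDN, runs past PRKAG1 and shares 300 of the 3815 exonic bases of DDN. It also shares 514 exonic bases with PRKAG1 and 267 with KMT2D. Over the 6 libraries KMT2D had 45245 counts and DDN-AS1 186. DDN-AS1 had 45, 47 and 33 counts in siCtrl and 16, 28 and 17 in siMED12, or 2.55 ± 0.492 and 1.22 ± 0.368 CPM. The siMED12 libraries were all below the siCtrl libraries, which held for 10.9% of all genes. The log2 fold change was -1.06 (edgeR adjusted p = 0.178) with treatment only and -1.07 (adjusted p = 0.00665) with the block. For each 100 counts of DDN there were 10.4, 10.6 and 8.13 counts of DDN-AS1 in siCtrl and 11.3, 22.6 and 12.8 in siMED12. The libraries were prepared with strand information, but its use in counting was not stated. Reads of the shared bases therefore cannot be told apart between DDN-AS1 and DDN, PRKAG1 or KMT2D. ENSG00000258283, whose 279 exonic bases all lie within DDN exons, had 1 count over the 6 libraries. WNT10B shares no exonic base with another annotated gene.

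Within 500 kb of WNT10B and DDN, 61 genes were counted, the 10 listed ones included, and 28 of them were tested. Leaving out WNT10B and DDN, which were selected on their fall, 0 of the other 26 were called higher and 0 lower by edgeR with treatment only. At an unadjusted p below 0.05 these numbers were 2 and 2, and DESeq2 called 1 higher, ADCY6, and 0 lower. Of the 26, 12 had a log2 fold change below 0, the median was 0.01, and the values ran from -1.06 (DDN-AS1) to 0.52 (ADCY6), while 47.6% of all tested genes were below 0 with a median of 0.02. In 4 of the 26 every siMED12 library lay below every siCtrl library, and in 3 above, against 10.9% and 11.2% of all genes.

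With the replicate block, 6 of these 26 genes rose and 6 fell, where 17.1% of all genes rose and 16.2% fell. Besides RHEBL1, the genes that fell were DDN-AS1, C1QL4, ENSG00000258017, TUBA1C and TUBA1B, of which the last pair was named after the values were seen. C1QL4, which encodes a secreted protein of the C1q family, was at 17.1, 18.7 and 65.95 CPM in siCtrl and at 8.67, 12.6 and 34.5 CPM in siMED12. Its log2 fold change was -0.84 with the block (edgeR adjusted p = 1.6e-09), and it was not called with treatment only (adjusted p = 0.579). Replicate 3 was far above the others in both groups. ENSG00000258017, a lncRNA, went from 26.5 ± 3.24 to 20.8 ± 3.63 CPM (blocked log2 fold change -0.36, adjusted p = 0.0035). Besides ARF3, KMT2D and LMBR1L, the genes that rose were ADCY6, DNAJC22 and CACNB3. ADCY6, an adenylate cyclase, was at 265, 232 and 282 CPM in siCtrl and at 367, 358 and 394 CPM in siMED12. Every siMED12 library of ADCY6 lay above every siCtrl library, which held for 11.2% of all genes. Its blocked log2 fold change was 0.52 (edgeR adjusted p = 2.86e-13, and 0.0639 with treatment only). DNAJC22 (0.16, adjusted p = 0.00362) and CACNB3, a calcium channel subunit (0.14, adjusted p = 0.0248), rose less.

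**Figure D4:**
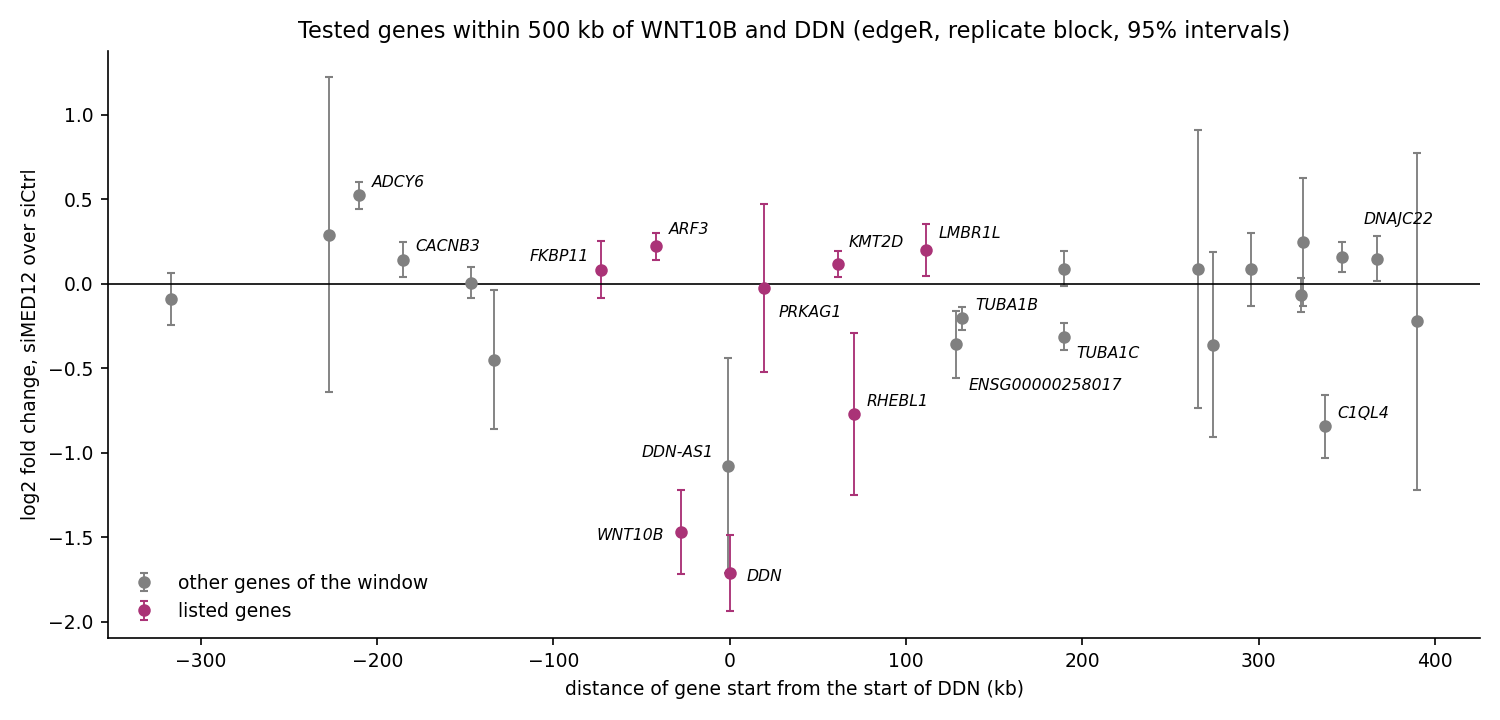
Log2 fold change of siMED12 over siCtrl in the edgeR fit with the replicate block for the 28 tested genes within 500 kb, by the distance of each gene's start from that of DDN in kb, with 95% intervals. Names mark the listed genes and those with an adjusted p below 0.05, and apart from WNT10B and DDN the points lie between -1.07 and 0.52.

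Differences between replicate numbers, with treatment in the model, were not the measure on which WNT10B and DDN were selected. The fit with treatment only counts such differences as spread, however, so selecting on a clear fall can favour genes in which they are small. The values of WNT10B and DDN here are therefore a description. Differences between replicate numbers were called for 5 of the 6 tested neighbours, and for 47.1% of all genes. RHEBL1 was 1.06 higher in replicate 2 and 1.89 higher in replicate 3 than in replicate 1 on the log2 scale (edgeR adjusted p = 7.42e-06). FKBP11 (0.81, adjusted p = 1.11e-09) and LMBR1L (0.77, adjusted p = 1.81e-08) were higher in replicate 3 than in replicate 1. KMT2D was lower in replicate 2 by a log2 difference of -0.30 (adjusted p = 7.58e-07) and ARF3 higher in it by 0.17 (adjusted p = 0.00377). For PRKAG1 the differences from replicate 1 were -0.22 and 0.14 and did not pass (edgeR adjusted p = 0.602). For WNT10B they were -0.17 and -0.19 and for DDN 0.00 and -0.04, given without a test.

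**Figure D5:**
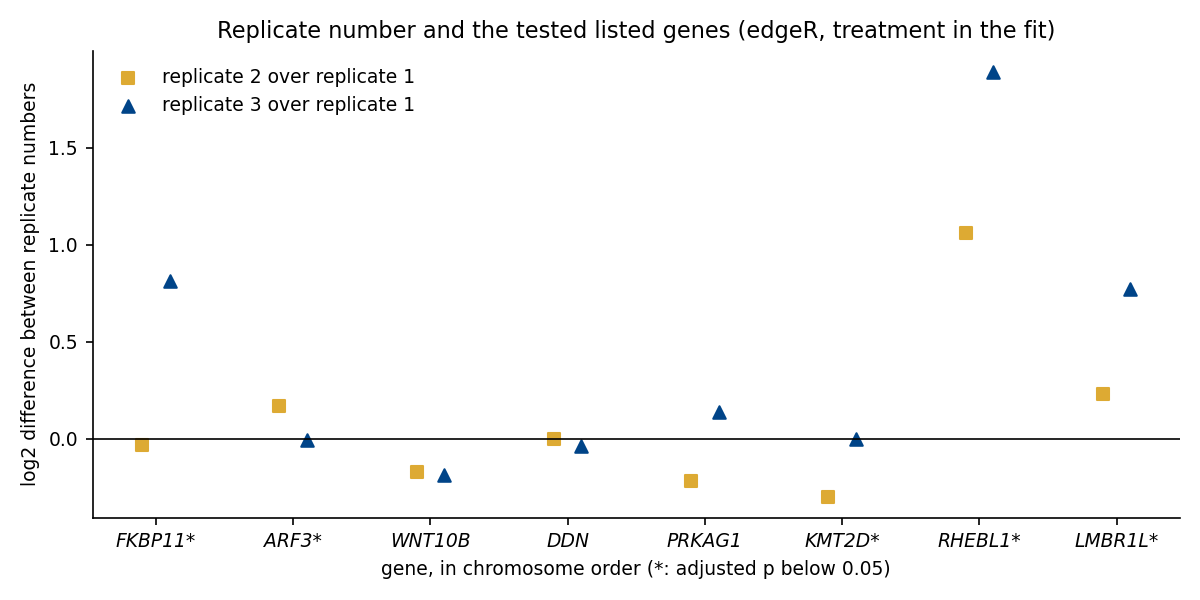
Log2 difference of replicates 2 and 3 from replicate 1, with treatment in the model, for the 8 listed genes that were tested. RHEBL1 (1.06 and 1.89) and FKBP11 (0.81 in replicate 3) stand above 0, whereas DDN (0.00 and -0.04) lies near it.

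Of 19 WNT ligand genes, 9 passed the filter. Among these 9, WNT10B had the highest siCtrl mean per length at 8.78 CPM per kilobase of exon, followed by WNT8B at 2.85, WNT9A at 1.46 and WNT7B at 1.31 CPM per kilobase. In siMED12 WNT10B was still the highest, at 3.19 CPM per kilobase against 1.82 for WNT8B. Leaving out WNT10B, which was selected on its fall, 0 of the other 8 were called with treatment only, and with the block 1 rose and 2 fell, where 17.1% of all genes rose and 16.2% fell. The median log2 fold change of the 9, WNT10B included, was 0.08 with treatment only, against 0.02 over all tested genes. WNT7B fell from 6.64 ± 1.73 to 3.82 ± 0.455 CPM (blocked log2 fold change -0.78, edgeR adjusted p = 0.00118) and WNT8B from 6.11 ± 0.303 to 3.91 ± 0.118 CPM (-0.64, adjusted p = 0.00476). WNT2 rose from 1.14 ± 0.153 to 2.58 ± 1.03 CPM (1.14, adjusted p = 0.00543). WNT9A (0.09, adjusted p = 0.751), WNT3 (-0.10, 0.877) and WNT5A (0.81, 0.110) did not pass with the block. WNT10A, the closest relative of WNT10B, was at 0.0600 ± 0.0595 CPM in siCtrl and 0.245 ± 0.190 CPM in siMED12 and was not tested.

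Of 10 genes listed as transcriptional targets of canonical WNT signalling, 9 were tested, 0 were called with treatment only, and with the block 1 rose and 3 fell, against 17.1% and 16.2% of all genes. Their median log2 fold change was -0.13 with treatment only. LGR5, the R-spondin receptor, fell from 13.1 ± 3.74 to 5.14 ± 1.48 CPM (blocked log2 fold change -1.34, edgeR adjusted p = 8.11e-10). DKK1, a secreted WNT inhibitor, fell from 16.4 ± 4.14 to 7.70 ± 2.65 CPM (-1.11, adjusted p = 4.22e-09), and ZNRF3, a ligase that removes WNT receptors, fell by 0.28 on the log2 scale (adjusted p = 0.00519). LEF1, a DNA-binding partner of β-catenin, rose by 0.35 (adjusted p = 0.00205). AXIN2, a negative regulator and common reporter of the pathway, was at 2.37 ± 1.35 CPM in siCtrl and 3.30 ± 1.72 CPM in siMED12 and did not pass in either fit (0.49, adjusted p = 0.129 with the block).

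Across the 6 libraries, log2 CPM of WNT10B and DDN correlated at Pearson r = 0.983, and over the 2 groups such a value follows largely from the group difference. Among 10670 other genes with a mean of at least 10 CPM, those most like WNT10B in this measure were LINC01029 (r = 0.998), KLHL21 (0.995) and STOML2 (0.995). Those most like DDN were BZW2 (0.999), PYCR1 (0.998) and UBE2SP1 (0.998), the last a pseudogene whose reads may be shared with its parent gene. With 6 libraries in 2 groups these correlations are descriptions and carry no test.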

How the data were processed

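Poly(A) RNA of 6 libraries of 22Rv1 cells was sequenced after strand-specific preparation. The labels give each library its group and replicate number. Per the study's methods, the authors aligned and counted reads with Rsubread against Gencode release 43 (GRCh38.p13). Its version, the use of strand and the handling of reads that fall in several genes or places are not given in the sources used here. The deposited counts are raw reads per gene. The deposited log2 CPM values, made by the authors, matched values recomputed here from the counts with edgeR's prior count of 2 to within 4.96e-09, so they hold no batch correction. The study labels 1 of its heatmaps of these cells as batch-corrected and does not name the batch.

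Counts of 17901 genes that passed edgeR's expression filter were tested with edgeR 4.0.16 in R 4.3.3 (TMM factors, quasi-likelihood F-test, treatment only), with two-sided p-values adjusted over all these genes by the Benjamini-Hochberg method and a threshold of 0.05. Standard errors and 95% intervals come from each F statistic and its fold change. DESeq2 1.42.0, limma 3.58.1, other scalings, other filters, left-out libraries and other windows were alternatives. The fits with treatment only and with the replicate block were also run on simulated counts with known changes. The outcome is not reported here and is not used as support for either fit.

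Both groups carry replicate numbers 1 to 3. Same-numbered libraries deviated together from their group means (correlation over genes 0.532, 0.373 and 0.643), while differently numbered ones did not (-0.460 to -0.0233). Because deviations from a group mean cancel within the group, the negative values follow in part from the positive ones. The labels do not state a pairing. The numbers were read as pairs from these correlations, and the fit that blocks on them is given where it changes a call. Replicates were not duplicates of each other (chi-square per degree of freedom 10.3 to 40.7).

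Positions and exon lengths came from Gencode release 44, which holds 99.1% of the counted gene identifiers, and promoters from RefSeq tables. WNT10B, DDN, CCDC65 and RHEBL1 had no promoter entry. The members, lists, tests and alternatives were chosen with earlier results of these data known. Named genes were the 10 listed genes, MED12, up to 3 further genes in each direction within 500 kb by fold change among those called with the block at a mean of at least 1 CPM, genes overlapping the exons of WNT10B, WNT1 or DDN, the 3 genes most correlated with WNT10B and with DDN, list members called in either fit (at most 4 a list) and WNT ligands with a mean of at least 1 CPM. AXIN2, WNT10A, further members of the KMT2C and KMT2D list, and TUBA1B and TUBA1C were named outside this rule, after their values were seen. A marker of another cell type is not reported here.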

Additional observations from a re-analysis of the deposited data

How the results depend on the processing

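Over 21 alternatives each, the log2 fold change of WNT10B lay between -1.69 and -1.31 and that of DDN between -1.78 and -1.62. The replicate block treats libraries of the same number as pairs. With it, the neighbours called were 3 higher and 1 lower against 0 and 0 with treatment only. The window genes were 6 higher and 8 lower against 0 and 2, and all genes 3058 higher and 2908 lower against 27 and 74. All window counts here include WNT10B and DDN, which were selected on their fall. The block combined with another choice gave, for neighbours higher and lower, 2 and 1 with DESeq2 size factors, 3 and 1 with library size only, 2 and 1 without a filter beyond 1 count, and 2 and 1 with genes averaging 1 CPM or more. Leaving out a replicate number in the blocked fit gave 1 to 3 neighbours higher and 0 to 1 lower, 2 to 6 window genes higher and 6 to 8 lower, and 2070, 2199 and 2375 of all genes higher and 2578, 2654 and 2579 lower. In the blocked fit the window genes were 5 higher and 8 lower with DESeq2 size factors, 8 and 8 with library size only, 5 and 8 without a filter, 5 and 8 with genes averaging 1 CPM or more, 5 and 7 within 250 kb, 10 and 10 within 1000 kb, and 6 and 6 among protein-coding genes. The blocked counts over all genes were 2960 higher and 3069 lower with DESeq2 size factors, 3807 and 2413 with library size only, 2841 and 2753 without a filter, and 2785 and 3147 with genes averaging 1 CPM or more. The blocked alternatives with other filters, windows and gene types were chosen after seeing the data.

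With treatment only, 1 window gene was called higher by the DESeq2 Wald test and 1 without a filter. All genes called were 319 higher and 482 lower by the Wald test, 186 and 290 without a filter, 118 lower with genes averaging 1 CPM or more and 49 lower with library size only. Of all calls, 26.7% were higher with TMM and 38.8% with library size only. Without 1 library, 0 to 2 window genes were lower, and 0 to 8 of all genes were higher and 0 to 37 lower. Of all genes, 0 were called in the fits without siCtrl replicate 1 or 2 or without siMED12 replicate 1 or 2. In those fits, 0 calls among the neighbours therefore carry no information about them. The sign changed for 3 neighbours that had not passed with treatment only. Without 1 library FKBP11 lay between -0.19 and 0.48. It was at -0.14 without siCtrl replicate 1, -0.15 without siCtrl replicate 2, -0.19 without siMED12 replicate 3 and -0.041 in the blocked fit without replicate 2. PRKAG1 lay between -0.20 and 0.23 without 1 library. It was at 0.042 with library size only, 0.09 without siCtrl replicate 2, 0.23 without siMED12 replicate 2, 0.015 in the blocked fit with library size only and 0.31 in it without replicate 2. RHEBL1 lay between -1.46 and -0.31 and KMT2D between 0.027 and 0.19 without 1 library, with no change of sign. LMBR1L lay between -0.024, without siMED12 replicate 3, and 0.48, without siCtrl replicate 3. ARF3 kept its call in 8 of 8 blocked fits (adjusted p from 1.31e-06 to 0.0026, edgeR). The causes of these changes were not tested. Depth limits WNT1 and CCDC65, with at most 15 counts in a library, and RHEBL1 and PRKAG1, with at most 100.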
